A study of Mus musculus with 3 samples.

Results

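Within DNase-seq data of MEL cells, a set of 359 strong accessible sites was found in the peak list of biological replicate 1 and had no counterpart near them in the list of biological replicate 2. MEL is a mouse erythroleukemia line, made of red cell precursors held at an immature stage. The 3 libraries were of 1 condition, with no treatment named in the labels. The labels gave 2 libraries to biological replicate 1 and 1 library to biological replicate 2. The deposited data hold a single peak list and a single list of hotspots (wider called regions) for each biological replicate, so no test over samples was possible and no p-value is given.

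The sites were chosen by measured values. A strong peak was a distinct replicate 1 peak on chromosomes 1 to 19 with a deposited score at or above the minimum of the rule, a value that 10.3% of the peaks there reached, and a far peak was a strong peak over 500 bp from every replicate 2 peak. Of 281600 distinct replicate 1 peaks, 269399 lay on these chromosomes and 27853 were strong. Of the strong peaks 26795, or 96.2%, shared a base with a replicate 2 peak, and a further 699 lay apart from one but within 500 bp. The remaining 359 far peaks made up 1.29% of the strong peaks. Absence from the other list, the score and the distance are the rule itself and are given as description only. Far peaks were set beside the 27494 other strong peaks on properties that the rule did not use. Intervals are 95% Wilson intervals for shares and Newcombe intervals for differences. They cover counting error over peaks, and neighbouring peaks are not independent, so they are too narrow as statements about MEL cells.

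DNase I cuts DNA that is not wrapped tightly in nucleosomes, and cut ends collect at promoters, enhancers and insulators where transcription factors have displaced histones. In red cell precursors many such sites are held open by GATA factors, the TAL1, LMO2 and LDB1 complex, KLF factors and NF-E2. The promoter check of cell type markers gave peaks at erythroid and myeloid markers. Of 8 erythroid markers all 8 had a replicate 1 promoter peak and 6 also a replicate 2 one, with Alas2 and Hba-a1 the exceptions. The 4 myeloid markers had one in each list. The lymphoid markers Cd3e, Cd4 and Cd79a had none in either list.

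Sequences of far peaks that the results below turn on are given on the forward strand of mm10 (GRCm38). The first pair are the highest scores, each at 145. In the Nepro promoter capitals mark the letters CACGTG, an E-box that MYC can bind, and in the Cic intron they mark a GATA site, taken as AGATAA or AGATAG or TGATAA or TGATAG on either strand.
Nepro, chr16:44724476-44724625: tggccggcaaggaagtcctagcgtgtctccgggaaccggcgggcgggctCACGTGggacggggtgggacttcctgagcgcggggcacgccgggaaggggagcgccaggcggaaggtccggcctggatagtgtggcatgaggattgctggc
Cic, chr7:25280396-25280545: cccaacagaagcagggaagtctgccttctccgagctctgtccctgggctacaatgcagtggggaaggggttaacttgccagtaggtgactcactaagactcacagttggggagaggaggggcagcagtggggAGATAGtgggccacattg

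Of a run of 4 far peaks nearest to Grina, 3 hold a GATA site, shown here in capitals because the run lies outside any annotated gene and at least 7070 bp from a replicate 2 peak.
Grina, chr15:76250616-76250765: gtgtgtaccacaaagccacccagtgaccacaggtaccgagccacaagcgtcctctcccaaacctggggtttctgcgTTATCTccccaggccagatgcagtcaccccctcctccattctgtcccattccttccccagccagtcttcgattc
Grina, chr15:76251016-76251165: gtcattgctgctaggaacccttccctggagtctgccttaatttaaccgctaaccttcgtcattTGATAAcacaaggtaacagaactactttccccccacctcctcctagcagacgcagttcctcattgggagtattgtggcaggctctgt
Grina, chr15:76252336-76252485: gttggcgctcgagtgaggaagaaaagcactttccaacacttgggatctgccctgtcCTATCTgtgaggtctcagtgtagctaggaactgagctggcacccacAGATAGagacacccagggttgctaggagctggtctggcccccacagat

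The promoters of blood regulators are shown for Bcl11a, with a GATA site in capitals, and for Tal1, with the ETS letters AGGAAA or AGGAAG or CGGAAA or CGGAAG of either strand in capitals.
Bcl11a, chr11:24080116-24080265: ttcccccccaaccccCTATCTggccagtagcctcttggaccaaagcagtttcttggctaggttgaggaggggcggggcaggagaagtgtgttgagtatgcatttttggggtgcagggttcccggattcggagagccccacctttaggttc
Tal1, chr4:115058416-115058565: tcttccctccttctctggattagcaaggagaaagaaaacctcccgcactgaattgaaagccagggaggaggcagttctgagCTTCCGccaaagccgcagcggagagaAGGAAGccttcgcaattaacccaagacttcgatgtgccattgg

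The only far peak with a full NF-E2 match is shown next, with the match in capitals. It is followed by the far peak with the smallest share of unique sequence, with the bases of an annotated tRNA gene in capitals.
Inpp5d, chr1:87648776-87648925: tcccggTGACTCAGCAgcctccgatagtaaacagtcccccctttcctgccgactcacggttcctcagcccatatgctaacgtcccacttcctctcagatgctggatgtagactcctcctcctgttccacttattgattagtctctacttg
Hist1h4h, chr13:23519576-23519725: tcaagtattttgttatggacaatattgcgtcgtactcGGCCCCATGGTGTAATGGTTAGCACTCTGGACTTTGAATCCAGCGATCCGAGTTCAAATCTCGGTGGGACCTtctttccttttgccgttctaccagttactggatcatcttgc

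Scores of far peaks lay near the lower limit. They ran from the minimum to 145 with a median of 135, against a median of 140 for the other strong peaks. Of 1531 strong peaks at the minimum score, 67 were far (4.38%), and of 1468 at 145, 2 were far (0.136%). None of the 5393 strong peaks above 145 was far. Just outside the limit, 91 peaks at a score of 131, 1 below the minimum, lay over 500 bp from a replicate 2 peak. By distance, 22 strong peaks lay in the last 100 bp inside the limit, the farthest at 490 bp, and 29 far peaks lay in the first 100 bp beyond it, the nearest at 510 bp.

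The distance to a replicate 2 peak had a median of 1870 bp (quartiles 960 and 4650 bp) and a maximum of 23150 bp. Of the far peaks 93 lay within 1000 bp, 174 lay over 2000 bp away, 78 over 5 kb and 26 over 10 kb. The farthest was in an intron of Rock2, which encodes a kinase of the actin cytoskeleton, at chr12:16897296-16897445 with a score of 133. The next were the Nepro promoter at 21670 bp, the promoter of the peptidase gene Dpp4 at 19650 bp, an intron of Nudt3 at 17090 bp and the promoter of Rasd1 at 16670 bp. These 5 had 0 replicate 2 peaks and between 5 and 19 other replicate 1 peaks within 10 kb. The first of these counts follows from their choice as the farthest.

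Shared strong peaks show what the replicate 2 list usually holds at such scores. Over 21469 overlapping pairs with replicate 1 scores in the range of the far peaks, the replicate 2 score had a median of 56 and ran from 6 to 115. At the minimum replicate 1 score the pairs had a median replicate 2 score of 43, and the 5th percentile was 30. At 145 the median was 74 and the 5th percentile was 55. The Nepro and Cic peaks have no replicate 2 score of their own, while 1449 shared pairs at that replicate 1 score all had one of 38 or more.

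**Figure D1:**
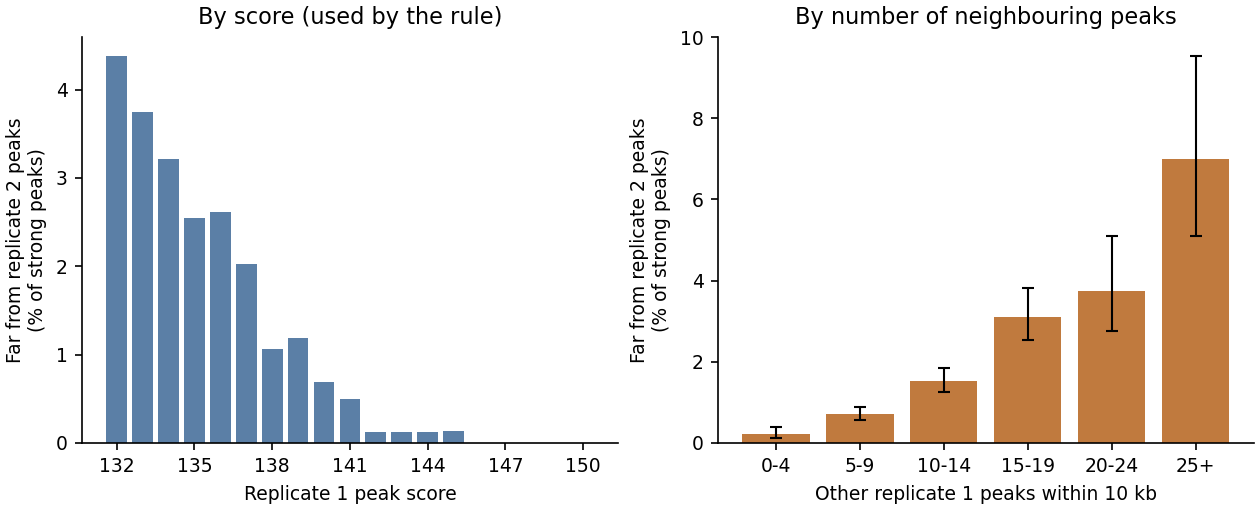
Share of strong replicate 1 peaks that lay over 500 bp from every replicate 2 peak, by replicate 1 score (left, bars) and by the number of other replicate 1 peaks within 10 kb (right, bars with Wilson 95% intervals). The share fell from 4.38% at the minimum score to 0 above 145, and rose from 0.216% with 0 to 4 neighbours to 6.99% with 25 or more.

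Far peaks sat among many other replicate 1 peaks. A far peak had a median of 13 other replicate 1 peaks within 10 kb (range 3 to 34), against 8 (range 0 to 41) for other strong peaks. Within 50 kb the medians were 43 and 30. At least 10 neighbours within 10 kb were found for 74.4% of far peaks and 39.9% of other strong peaks, a difference of 34.5 percentage points (29.7 to 38.7). Weighting the other strong peaks to the scores of the far peaks gave 36.4% and a difference of 37.9 points (33.4 to 42.5). The share of strong peaks that were far rose at each step of the plot by neighbours, from 11 of 5095 with 0 to 4 neighbours (0.216%, 0.121 to 0.386%) to 36 of 515 with 25 or more (6.99%, 5.09 to 9.53%). Replicate 2 peaks within 10 kb had a median of 3 for far peaks and 4 for other strong peaks, and a gap of about 1 is set by the rule, which requires at least 1 within 500 bp of every other strong peak and bars it from far peaks. This measure was chosen after values were seen.

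The shared sites beside far peaks had the usual replicate 2 scores. Among strong overlapping pairs, 491 lay within 10 kb of a far peak, and their replicate 2 score was a median of 1 above the median for their own replicate 1 score (quartiles -5 and 9). For the 20978 pairs farther off the median was 0 (quartiles -7 and 7). The spread within each class was wider than the difference between them.

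Replicate 1 hotspots were compared in the same way. All far peaks and all other strong peaks lay in a replicate 1 hotspot at the cap of 100 on the −log10 q scale. That hotspot had a median width of 2085 bp for far peaks and 1727 bp for other strong peaks. It was 3 kb or wider for 31.5% and 16.9%, a difference of 14.5 points (9.94 to 19.5). Replicate 2 hotspots come from the same library as the replicate 2 peaks of the rule. Their cover is thus largely set by the rule and is given as description only. A replicate 2 hotspot touched 1 of the 359 far peaks (0.279%, 0.0492 to 1.56%), at a shared promoter region of Srgap2 and Fam72a with a score of 140. Another 16 had one within 500 bp, which brings the share to 4.74%. In 134 cases (37.3%) the replicate 1 hotspot around a far peak also held a replicate 2 peak elsewhere in it. This share was 86.0% for the 93 far peaks up to 1000 bp from a replicate 2 peak, 43.5% for the 92 at 1001 to 2000 bp and 14.6% for the 96 at 2001 to 5000 bp. A fall with distance is largely built in, since a farther replicate 2 peak needs a wider hotspot to hold both. Most far peaks close to the limit shared a replicate 1 hotspot with a site of the replicate 2 list.

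**Figure D2:**
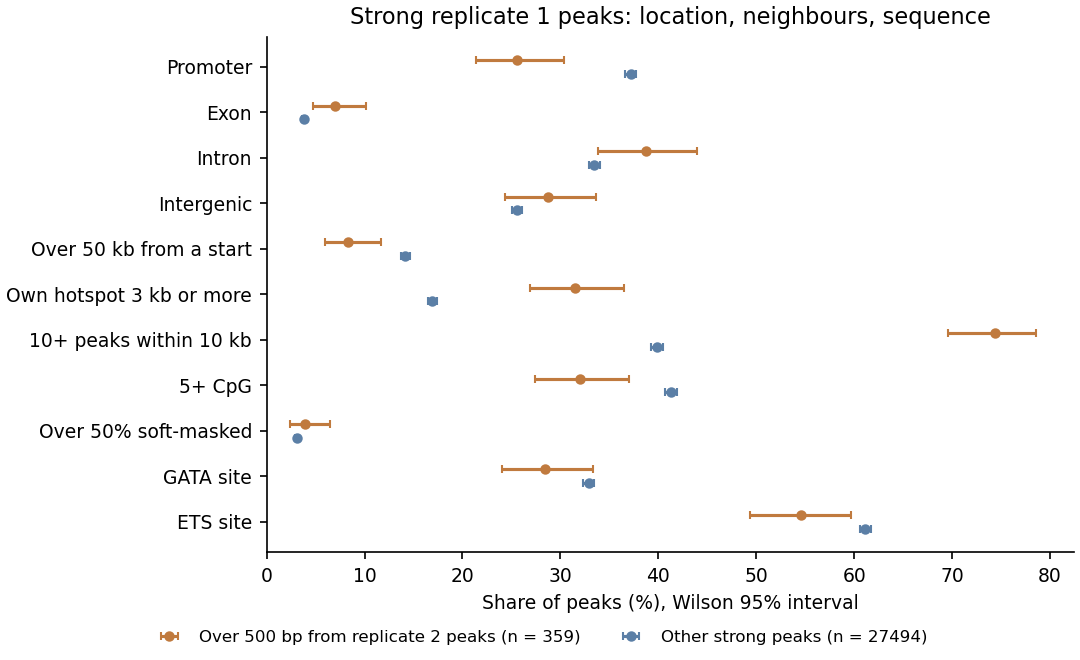
Shares of far peaks (orange, n = 359) and of the other strong replicate 1 peaks (blue, n = 27494) with each property, with Wilson 95% intervals. The widest gap is in the share with 10 or more other replicate 1 peaks within 10 kb, 74.4% against 39.9%; promoters held 25.6% of far peaks and 37.2% of the others.

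By location, 92 far peaks were at promoters, 25 in exons, 139 in introns and 103 between genes. Peaks with a centre no more than 1000 bp from a protein-coding transcript start counted as promoter peaks. Promoters held 25.6% of far peaks and 37.2% of other strong peaks, a difference of -11.5 points (-15.8 to -6.75). Weighted to the scores of the far peaks the others came to 31.4% and the difference to -5.81 points (-10.4 to -1.22). Exons held 6.96% against 3.79%, a difference of 3.18 points (0.963 to 6.30) whose score-weighted interval, -0.0103 to 5.31, spanned 0. The intergenic shares of 28.7% and 25.6% could not be told apart (-1.38 to 8.0 points). Sites over 50 kb from any protein-coding start were 8.36% of far peaks and 14.1% of the others, a difference of -5.78 points (-8.26 to -2.43). Far peaks thus lay over 50 kb from a start less often than other strong peaks, and also less often within 1000 bp of one. Gene bodies outside promoters held 45.7% of far peaks and 40.8% of the others weighted to scores, with an interval that spanned 0 (-0.312 to 10.1 points). The promoter share of far peaks depended on the promoter width and was 43.7% within 2500 bp of a start. At scores of 140 or more it was 40.7% of 27 far peaks (24.5 to 59.3%). That interval includes 25.6%, so a dependence on the score limit is not resolved. No share of the others is given at these limits.

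The 92 promoter far peaks belonged to 92 protein-coding genes. For 50 of these genes the replicate 2 list had a peak elsewhere in the promoter, and for 42 it had none. In 41 of the 42 a far peak was the highest-scoring replicate 1 promoter peak, which the choice of genes nearly fixes, since a higher peak that was not far would need a replicate 2 peak close by. Hic1, which encodes a zinc finger repressor, was the exception, with another replicate 1 promoter peak at 142.

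Examples of the 42 genes, chosen after their values were seen, follow. None of the listed housekeeping genes was among them. Ran, the GTPase of nuclear transport, had a far peak with a score of 133 at chr5:129019576-129019725, 11970 bp from a replicate 2 peak. The start of Ovca2 was 16 bp from a far peak with a score of 136. Arpc1b, a subunit of the actin-branching Arp2/3 complex, had a far peak of 134. Others were the integrin subunit Itgav (137, 26 bp from its start) and the matrix metalloproteinase Mmp14 (137, 21 bp). The cell death gene Bbc3, a target of p53, had the minimum score. All of these had 3 to 5 replicate 1 promoter peaks.

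In 11 of the 50 genes whose promoter the replicate 2 list did mark, the far peak was the highest replicate 1 promoter score. The divergent genes Eif2b4, a translation initiation factor subunit, and Snx17, an endosomal sorting protein, shared a far peak of 144, 750 bp from a replicate 2 peak with a score of 96, and the highest replicate 1 promoter score exceeded that of the far peak. At Pde4b, a cyclic AMP phosphodiesterase, the far peak of 143 was itself the highest, and the replicate 2 list had 2 promoter peaks with a top score of 58. Ptpn7 and Fhl3 each had a far peak of 141 with 1 replicate 2 promoter peak, at 79 and 66.

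Regulators of blood formation were among the genes with a promoter far peak. Of 19 listed erythroid transcription factors on chromosomes 1 to 19, 4 had one: Tal1, Lmo2, Ldb1 and Bcl11a. The same count over all protein-coding genes was 92 of 20696, or 0.445%. The list and its members were drawn up with earlier results of these data known, and nothing particular to the list is claimed. TAL1, LMO2 and LDB1 are partners in a complex that joins GATA1 to E-box sites and brings enhancers to promoters, and BCL11A represses fetal globin genes.

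Each of these promoters was also marked in the replicate 2 list. At Tal1 the far peak had the minimum score, the highest of 6 replicate 1 promoter peaks scored 143, and the replicate 2 list had 1 promoter peak at 46. At Lmo2 it also had the minimum score, among 8 promoter peaks reaching 136, with 2 replicate 2 peaks up to 42. At Ldb1 it scored 138, 17 bp from a start, among 8 reaching 146, with 1 replicate 2 peak at 59. Bcl11a had 2 promoter far peaks, at the minimum score and at 134, and another in an intron at the minimum, and its 1 replicate 2 promoter peak scored 68. These genes had 3 to 6 annotated starts and 6 to 8 replicate 1 promoter peaks each, and the number of promoter peaks was not matched in the count over all genes.

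Across the other lists 1 gene had a promoter far peak. The share over all protein-coding genes was itself 0.445%, and the lists are too short to tell 0 from that share. Gapdh, a glycolytic enzyme, was the 1 of 18 housekeeping genes with one, at 135. The remaining 12 lists, among them globin, heme synthesis and iron, red cell membrane, megakaryocyte, myeloid, lymphoid and neuron genes, had 0. By nearest gene, 269 genes were nearest to at least 1 far peak, 1.30% of all. Of 260 listed genes 13 were among them. They include Alad, an enzyme of heme synthesis, with 2 intron far peaks at 136 and 134, and Cbfa2t3, a corepressor of the TAL1 complex. Lyl1, a relative of TAL1, was the nearest start to 2 far peaks that lie in exon sequence of Nfix, 5774 and 5994 bp away.

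Far peaks occurred in groups along chromosomes. Of the 359, 181 (50.4%, 45.3 to 55.6%) lay within 50 kb of another far peak, whereas 6.99% of other strong peaks lay within 50 kb of a far peak. Within 10 kb the shares were 36.5% and 2.68%, and within 200 kb 54.6% and 14.4%. The rule sets part of this contrast, since strong peaks close together lie at similar distances from replicate 2 peaks. Far peaks also had more strong peaks around them, with a median of 3 other strong peaks within 10 kb against 1. That number was not matched, so the shares are description only. Joined at 50 kb, the far peaks made 244 groups, of which 178 held 1 peak, 44 held 2, 8 held 3, 7 held 4, 4 held 5, and 1 each held 6, 7 and 8. In 24 of the 66 groups of 2 or more the replicate 2 list had no peak between the first and the last far peak. As runs of consecutive strong peaks that were all far, 109 far peaks lay in 47 runs of 2 or more.

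**Figure D3:**
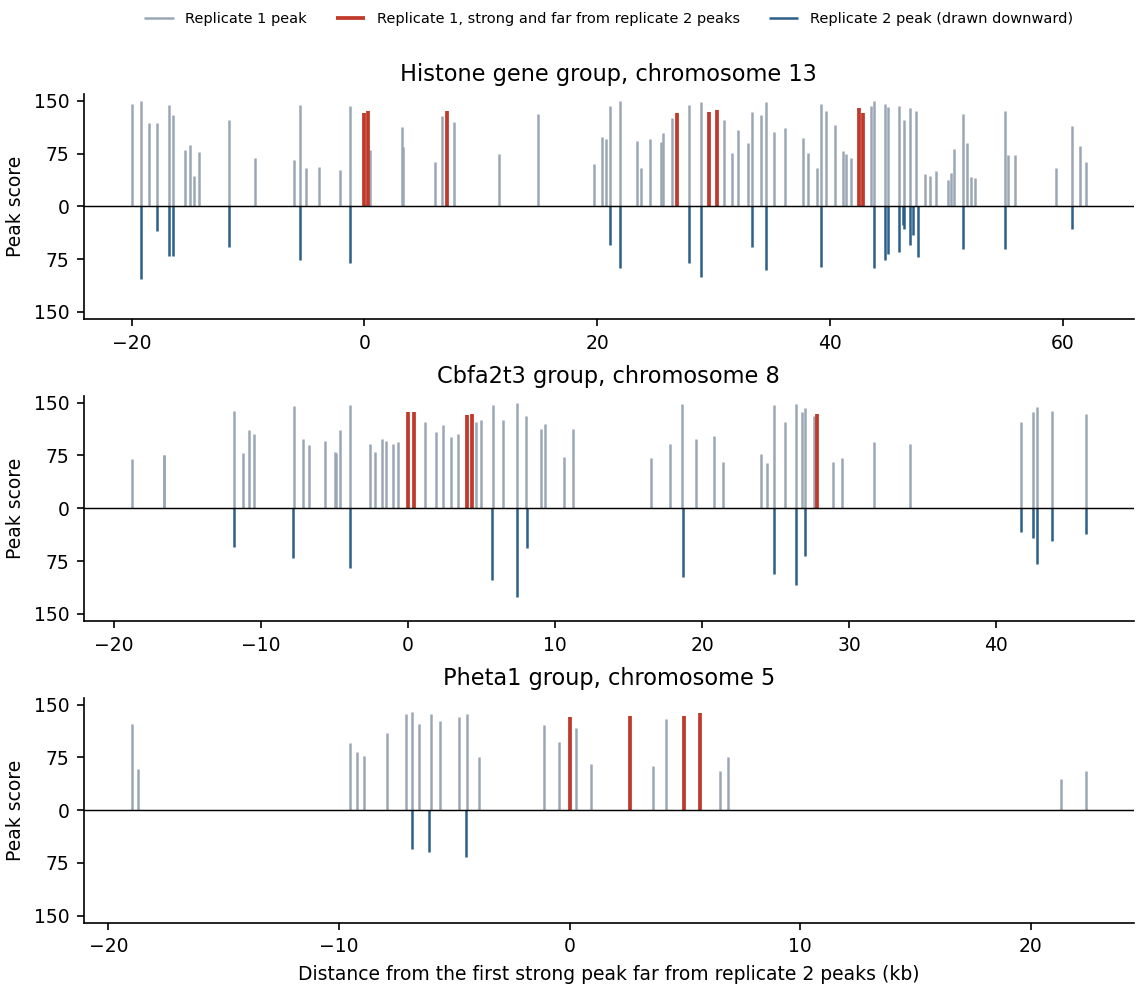
Peak scores along 3 groups of far peaks, by distance in kb from the first far peak of the group; replicate 1 peaks are drawn upward (far peaks in red, other peaks in grey) and replicate 2 peaks downward (blue). Far peaks with scores up to 140 stand between shared peaks in the histone and Cbfa2t3 groups, and the 4 at Pheta1 form a stretch with no replicate 2 peak.

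The 1-Mb window with the most far peaks covered histone genes of chromosome 13. Between 23 and 24 Mb 16 of 94 strong peaks were far (17.0%, 10.8 to 25.9%), against 1.29% of all strong peaks. Among the 33 windows with 3 or more far peaks, 3 sparser windows had a higher share. They include 194 to 195 Mb of chromosome 1 and 24 to 25 Mb of chromosome 11 with 4 of 10 each. The largest group, at chr13:23717676-23760625, held 8 far peaks with scores up to 140, among 47 replicate 1 peaks, 16 of them strong, and 7 replicate 2 peaks. Its genes include Hist1h1c, Hist1h3c, Hist1h2bb and Hist1h4b, which supply histones for newly made DNA, and Hfe, a regulator of iron uptake, was the nearest start to 3 of them (133 to 135). A second group of 6 far peaks with scores up to 134 lay at chr13:23519576-23577525 with 84 replicate 1 and 19 replicate 2 peaks. In all, 14 far peaks (3.90%) had a histone gene as nearest start, against 112 other strong peaks (0.407%). Histone genes are near copies of each other. Only unique 32-base words were held by 12 of these 14 peaks, and by 340 of all 359 far peaks (94.7%). A part of repeated sequence in this group was not tested.

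**Figure D4:**
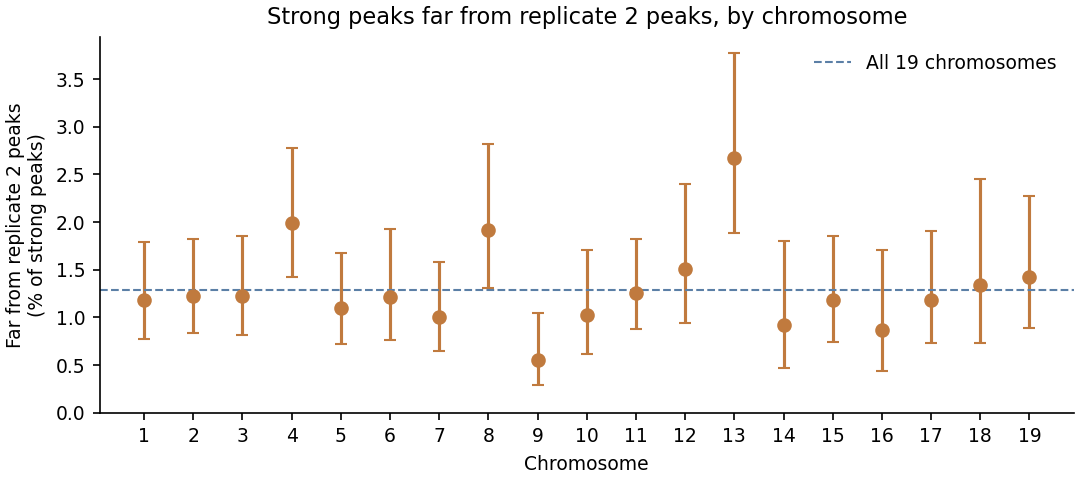
Share of strong replicate 1 peaks that were far, by chromosome, with Wilson 95% intervals; the dashed line is the share over all 19 chromosomes, 1.29%. Chromosome 13 is highest at 2.67% and chromosome 9 lowest at 0.554%.

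Chromosome 13 had the highest share of far peaks, 31 of 1161 (2.67%, 1.89 to 3.77%), and without 23 to 24 Mb it had 15 of 1067 (1.41%, 0.854 to 2.31%). Chromosomes 4 and 8 followed with 1.99% and 1.92%, and chromosome 9 was lowest with 9 of 1624 (0.554%, 0.292 to 1.05%). The remaining chromosomes lay between 0.870% and 1.51%, with intervals that overlapped. Of 1810 windows of 1 Mb with a strong peak, 205 held a far peak and 33 held 3 or more, together 145 of the 359.

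Chromosome 11 held the second largest group, 7 far peaks at chr11:75153276-75193845. It spans Smg6, Hic1, Ovca2, Dph1 and Rtn4rl1 and has 30 replicate 1 peaks and 3 replicate 2 peaks. Far peaks stood at the promoters of Hic1 (140 and 133), Ovca2 (136) and Rtn4rl1 (140 and 134), and none of these 3 genes had a replicate 2 promoter peak. The window from 75 to 76 Mb had 7 far peaks among 47 strong ones (14.9%). On chromosome 3, the window from 96 to 97 Mb had 7 among 185 (3.78%). Of these, 4 were intergenic with scores of 136 to 144, and the nearest start was that of Fcgr1, 41382 to 45182 bp off. Hist2h3b had a promoter far peak of 139.

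Groups of 5 marked single loci. Nol4l had 5 intergenic far peaks with scores of 133 to 139 over 17790 bp, beside 1 replicate 2 peak. Mef2d, a transcription factor gene, had 5 with scores up to 138, of which 1 lay at the promoter, 2 in an intron and 2 between genes. Cbfa2t3 was nearest to 5 with scores of 133 to 136, all intronic, beside 7 replicate 2 peaks. Of these, the peak at chr8:122721156-122721305 overlapped the annotated gene Gm20388 and not Cbfa2t3. The group at Erf, an ETS repressor, and Cic, a repressor of growth factor targets, had 5 with scores up to 145.

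Runs of 4 were found at 4 loci. At Pheta1, chr5:121843196-121848985, the 4 far peaks scored 133, 134, 134 and 138 and ended 73 bp from the start. At Cbfa2t3, chr8:122693396-122697865, they scored 136, 136, 133 and 134. At Grina, chr15:76250616-76252485, they scored 139, the minimum, 133 and 138 within 1870 bp and were 7070 to 8210 bp from a replicate 2 peak. At chr1:194976236-194977545, with Cd34 as nearest protein-coding start 37436 to 38596 bp off, they scored 140, 139, 137 and the minimum within 1310 bp. In the Grina and Cd34 runs each replicate 1 peak of the run was a far peak. A run of 3 at Stat6 and Nab2, chr10:127643956-127662345, scored 136, the minimum and 139.

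Measures of repeated sequence were mixed. All 32-base words were unique in the genome for 94.7% of far peaks and 94.9% of the others. None of the 359 had under 50% unique words, where 3 counts of 359 would be 0.836% and the Wilson upper bound is 1.06%, and 13 of 27494 others did (0.0473%). Over 50% of bases were soft-masked as repeats in 3.90% and 3.14% (difference -0.816 to 3.31 points). Peaks with no soft-masked base were 51.8% and 58.5%, a difference of -6.71 points (-11.9 to -1.55) that was -3.60 (-8.84 to 1.65) after weighting to scores. At promoters these shares were 55.4% and 71.4%, and the score-weighted interval, -23.8 to -3.21, left out 0, so promoter far peaks held some masked sequence more often. Outside promoters they were 50.6% and 50.9% (-6.33 to 5.67). Tandem repeats of a 1- to 4-base unit, with at least 6 copies and 12 bases, were in 0 far peaks and 430 others (1.56%).

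The lowest share of unique words in a far peak was 64.7%, in the Hist1h4h peak shown above, which holds the tRNA gene n-TQttg5. In all 5 far peaks (1.39%) lay within 200 bp of an annotated tRNA gene, against 173 others (0.629%), a difference not resolved (-0.0392 to 2.59 points). Of these 5, 4 lay on chromosome 13, at n-TQctg10, n-TVcac9, n-TQttg5 and n-TRtcg1, and 1 on chromosome 11, at n-TTagt5. The median GC content was 53.3% against 52.7%, and the median number of CpG was 3 in each class. At least 5 CpG were in 32% of far peaks and 41.3% of the others, a difference of -9.24 points (-13.9 to -4.21) that was -4.01 (-8.91 to 0.893) after weighting to the scores. At promoters the shares were 65.2% and 82.1%, with a score-weighted interval of -22.8 to -3.17.

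The 150 bp around each peak centre were searched on both strands for the letters of 22 motifs, and a base could count towards several. Over all far peaks the interval of the difference left out 0 for 2 motifs, ETS and NFY (CCAAT). ETS letters were in 54.6% of far peaks and 61.1% of the others (-11.8 to -1.44 points). CCAAT was in 16.4% and 23.1% (-10.2 to -2.43), and 18% after weighting to scores (-5.43 to 2.35). A GATA site was in 102 far peaks, 28.4% against 32.9% (-8.90 to 0.456), which is not resolved. CTCF, NF-E2 and PU.1 matches were in 1 far peak each, against 1.01%, 0.927% and 0.564% of the others, and these numbers are too small to compare. CACGTG, as in the Nepro promoter, was in 3.34% and 4.74%.

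Outside promoters a GATA site was in 84 of 267 far peaks (31.5%) and in 7646 of 17275 others (44.3%), a difference of -12.8 points (-18.1 to -6.95). It was -9.88 (-15.5 to -4.21) after weighting to scores and -9.42 (-15.1 to -3.76) after weighting to the number of neighbours. The difference was not even across far peaks. The share was 25% for the 60 such far peaks up to 1000 bp from a replicate 2 peak and 19.4% for the 72 at 1001 to 2000 bp, but 42.9% (32.4 to 54.0%) for the 77 at 2001 to 5000 bp. For far peaks over 2000 bp away it was 40.7%, given without an interval. The others came to 40.9% when weighted to the neighbours of all 267 far peaks, so these shares are not matched. The Wilson interval was 26.3 to 55.4% at 5001 to 10000 bp. Over 10 kb the share was 33.3% of 18 (16.3 to 56.3%). Both intervals include 31.5% and 44.3%. By number of neighbours within 10 kb, the share of far peaks was the lower one in 5 of 6 classes. It was 30% of 10 far peaks against 46.9% with 0 to 4, and 23.7% of 59 against 46.1% with 5 to 9. It was 29.7% of 64 against 39.7% with 15 to 19, and 20.7% of 29 against 35.7% with 20 to 24. With 25 or more it was 25.9% of 27 against 28.5%. With 10 to 14 neighbours, the class with most far peaks, it was 44.9% of 78 against 43.4%. These classes are small and have no intervals. ETS letters outside promoters were in 53.2% and 64.2% (-17.0 to -5.08). At promoters GATA sites were in 19.6% and 13.6% (-0.876 to 15.3) and ETS letters in 58.7% and 56.0% (-7.55 to 12.3). The interval left out 0 there for 3 motifs. CCAAT was in 14.1% and 31.4% (-23.1 to -8.70), the STAT motif in 6.52% and 2.40% (0.611 to 11.1), and HNF4 in 1 far peak. After weighting to scores all 3 intervals spanned 0. Outside promoters CCAAT was in 17.2% and 18.1% (-5.01 to 4.11). The split by promoter was chosen after values were seen, and the intervals are not adjusted for the number of motifs.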

How the data were processed

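DNase-seq of MEL cells was deposited as called regions on mm10, per the labels. Per the deposited notes, the replicate 1 lists came from an alignment listed for both of its libraries and the replicate 2 lists from the alignment of its 1 library. Aligner, caller, filters and read numbers are not given in the sources used here. The depth is unknown, and list sizes cannot be compared. The deposited peak score is a whole number from 1 to 150 whose meaning is not given there. It served to rank and filter peaks within a list, with a minimum of 132 for strong peaks, and to weight shares. Replicate 2 scores of shared pairs were also summarised at each replicate 1 score. The deposited hotspot value is a −log10 q, capped at 100.

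Exact repeats were dropped (67 in the replicate 1 peaks, 7 in the replicate 2 peaks). Distances count the bases between peak edges. Peaks were placed on GENCODE M21 basic, with tRNA genes from RefSeq, both of GRCm38. Sequences came from the RefSeq GRCm38 genome. Unique words of 24, 32 and 50 bases were counted over both strands of the genome. Score weighting gave the other strong peaks the score distribution of the far peaks. Code was tested on simulated data and used numba 0.67.0, numpy 2.4.6, scipy 1.17.1, matplotlib 3.10.9 and pandas 2.3.3 under Python 3.11.15.

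The far peaks, the 14 gene lists, the 22 motifs and the comparisons were chosen with earlier results of these data known. Genes named by rule were those nearest to the 10 highest-scoring far peaks, to the 10 highest at promoters, to the 5 runs with most far peaks and to the 5 farthest, listed genes with a promoter far peak, and the genes and windows with most far peaks. Promoter genes named beyond these were chosen after their values were seen. Ties in score were ordered by hotspot value, then by distance. Alternatives were other score and distance limits, promoter widths, annotations, grouping distances and motif windows, 1 far peak per group, and weighting. A few genes that the rule or the marker list holds, and 1 sequence, are not reported here.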

Additional observations from a re-analysis of the deposited data

How the results depend on the processing

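The number of far peaks depends on the limits: 1058 strong peaks shared no base with a replicate 2 peak, 174 lay over 2000 bp away, 27 had a score of 140 or more and 2429 had 120 or more. The promoter share was 43.7% within 2500 bp of a start, 32.3% with all annotated transcripts and 40.7% at scores of 140 or more, and the intergenic share was 22.2% at scores of 140 or more. Among the other strong peaks, weighting to the scores of the far peaks gave 31.4% at promoters and 27.8% between genes. The share of far peaks near another was 36.5% at 10 kb and 14.8% at scores of 140 or more. The share touching a replicate 2 hotspot was 4.74% with hotspots within 500 bp and 3.70% at scores of 140 or more. GATA sites were in 17.8% of far peaks in a 75 bp window and 34.5% of those over 2000 bp away, where CTCF matches were in 0 of 174. Outside promoters GATA sites were in 25% at scores of 140 or more and 40.7% over 2000 bp away. They were in 41.3% of the others weighted to scores and 40.9% weighted to the neighbours of all far peaks outside promoters. Of 41 alternatives 20 stayed within a set range of the main value and 21 did not; the range was 1.5 times for the number of far peaks, the Wilson interval for shares and the quartiles for medians. The cause was not tested. The alternatives for neighbours and for GATA sites outside promoters were chosen after seeing the data. No paired analysis was possible because each biological replicate has 1 list and no result comes from a test over samples. With the depth unknown, absence from the replicate 2 list says only that no peak was called there.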
